A study of Rattus norvegicus with 5 samples.

Results

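The Kupffer cell and macrophage genes are 40 genes that mark the resident macrophages of the liver and the wider myeloid lineage, measured here in cultures of rat hepatic stellate cells. A gene entered if the platform annotation gives its symbol to a probe and if the deposited detection p-value of that probe, which sets its signal against negative control beads, was under 0.01 on at least 1 of the 5 arrays. Of the 40 genes, 33 had a probe of that name and 32 were kept, each through 1 probe, among 9737 kept probes of 22523 and 7051 kept named genes of 13337. Cd68, Csf1r, Clec4f, Msr1, Lyz2, Timd4 and Cd5l have no matching probe symbol and were not analysed here. Mpeg1, a pore-forming protein of the macrophage phagosome, had a probe that was detected on no array.

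Kupffer cells line the liver sinusoids, depend on signalling through the receptor of colony stimulating factor 1, and take up bacteria, complement-coated particles and old red cells. The transcription factor PU.1, encoded by Spi1, binds a purine-rich site in the regulatory regions of many myeloid genes. Stellate cells lie beside the Kupffer cells, store vitamin A, and change into fibrogenic myofibroblasts after liver injury or on culture plastic. Calcitriol, or 1,25(OH)2D3, is the hormonal form of vitamin D and acts through a nuclear receptor that macrophages also carry.

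All samples were total RNA of primary hepatic stellate cells from male Wistar rats of 10 weeks. The groups were 1 array labelled as freshly isolated cells with no treatment, 2 arrays of cells at day 3 given vehicle, and 2 arrays of day 3 cells that received 100 nM calcitriol, over 24 h by the design text. The study concerned vitamin D signalling in stellate cell activation. Nothing in the labels says whether replicates came from separate cultures or animals. The p-values then measure only the spread between these arrays, and it may be technical.

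The median probe intensity of the arrays lay between 110.3 and 121.3, the median number of beads per probe was 40 or 41, and between 8316 and 9112 probes were detected per array. Vehicle array 2 had the lowest mean intensity, 608.2, against 738.5 to 854.8 on the other arrays. The array labelled freshly isolated resembled the calcitriol arrays, against its label. Over the kept probes it correlated at 0.990 and 0.989 with the calcitriol arrays and at 0.980 and 0.981 with the vehicle arrays, which share 1 chip and 1 normalization, and 0 of 9737 probes passed in limma between it and calcitriol against 149 between it and vehicle. Cyp24a1, the calcitriol-degrading enzyme, which the vitamin D receptor induces, had log2 normalized intensities of 8.09 on that array, 8.81 and 8.90 with calcitriol, and 5.12 and 4.84 with vehicle, where it was not detected. The likeness to calcitriol did not hold in every marker list. Of 15 kept sinusoidal endothelial markers, 14 had a higher value with vehicle and 14 with calcitriol than on the array labelled freshly isolated. This array is therefore called the array labelled fresh below, and it has no replicate. The stellate cell label was checked against defining markers, of which 16 of 19 with a probe were kept, while Gfap, Ngfr and Rgs5 were not detected on any array. Of 22 hepatocyte markers with a probe 18 were not detected, Alb among them, and 9 of 16 lymphocyte markers were not detected, Cd3d, Cd3g and Ms4a1 among them.

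Macrophage transcripts were present on every array. Of the 32 kept members 31 were detected on all 5 arrays, and Adgre1, the gene of the macrophage surface receptor EMR1, was detected on 4. Their summed normalized intensity, which the brightest probes dominate, was 193296 on the array labelled fresh, 183726 and 188825 with vehicle, and 181651 and 179262 with calcitriol. Both calcitriol arrays thus lay below both vehicle arrays and the array labelled fresh. The sum over 47 kept genes of a broader macrophage and myeloid list lay the other way, at 221581 and 224571 with vehicle and 228090 and 234865 with calcitriol. Bright probes weigh on this sum too, such as Coro1a, at log2 12.70 and 12.89 with vehicle and 14.04 and 14.25 with calcitriol. By gene, 28 of the 47 had a lower and 19 a higher value with calcitriol, with a median log2 change of -0.09. Among the members 20 had a lower and 12 a higher value. The sums thus differed in direction, while most genes of each list had a lower value with calcitriol. In bulk RNA fewer macrophages and less of these transcripts per macrophage cannot be told apart. The stellate markers summed to 84185 and 79197 with vehicle and to 78516 and 86605 with calcitriol, so that these groups overlapped. The 7 kept lymphocyte markers summed to 774 and 715 with vehicle and to 1123 and 1006 with calcitriol. The 4 kept neutrophil and dendritic cell markers of 16 with a probe summed to 8194 and 8169 with vehicle and to 6042 and 5914 with calcitriol, while S100a9, Mpo and Elane were not detected. By gene, 3 of these 4 had a higher and 1 a lower value with calcitriol, with a median log2 change of 0.10. Their lower sum thus does not describe the 4 markers as a set. The groups did not overlap in either sum, and the part of such cells in the members' values was not tested.

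The main comparison asked whether calcitriol shifted the macrophage genes, and whether they moved together, as they would if the share of macrophage RNA differed, or separately. None of the 32 members passed an adjusted p under 0.05 in limma, against 1.83% of all 9737 kept probes (1.17% higher and 0.657% lower). The lowest adjusted p among members was 0.0896, of Fcgr3a. At an unadjusted p under 0.05 there were 10 members, 2 higher and 8 lower with calcitriol, where 15.8% of all kept probes reached that level (7.73% higher and 8.09% lower). The median interval of a member's log2 change extended 0.36 to either side at 95% confidence, so a missed threshold does not show that a member had the same level in both groups.

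The members differed in direction. With calcitriol 12 had a higher and 20 a lower value, with a median log2 change of -0.12 against 0.00 over all kept probes. The changes ran from -0.71 to 0.48, and 4 members were over 0.5 in size, where 11.1% of all kept probes were. Their interquartile range was 0.47, against 0.35 over all kept probes and 0.32 over the 7839 probes detected on every array. In 15 members both calcitriol arrays lay below both vehicle arrays, which is 46.9% of members where 24.4% of all kept probes did so, and in 6 members they lay above, 18.8% where 23.3% of all kept probes did so. In all, 21 members did not overlap, where 47.7% of all kept probes did not, and the remaining 11 overlapped between the groups.

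**Figure D1:**
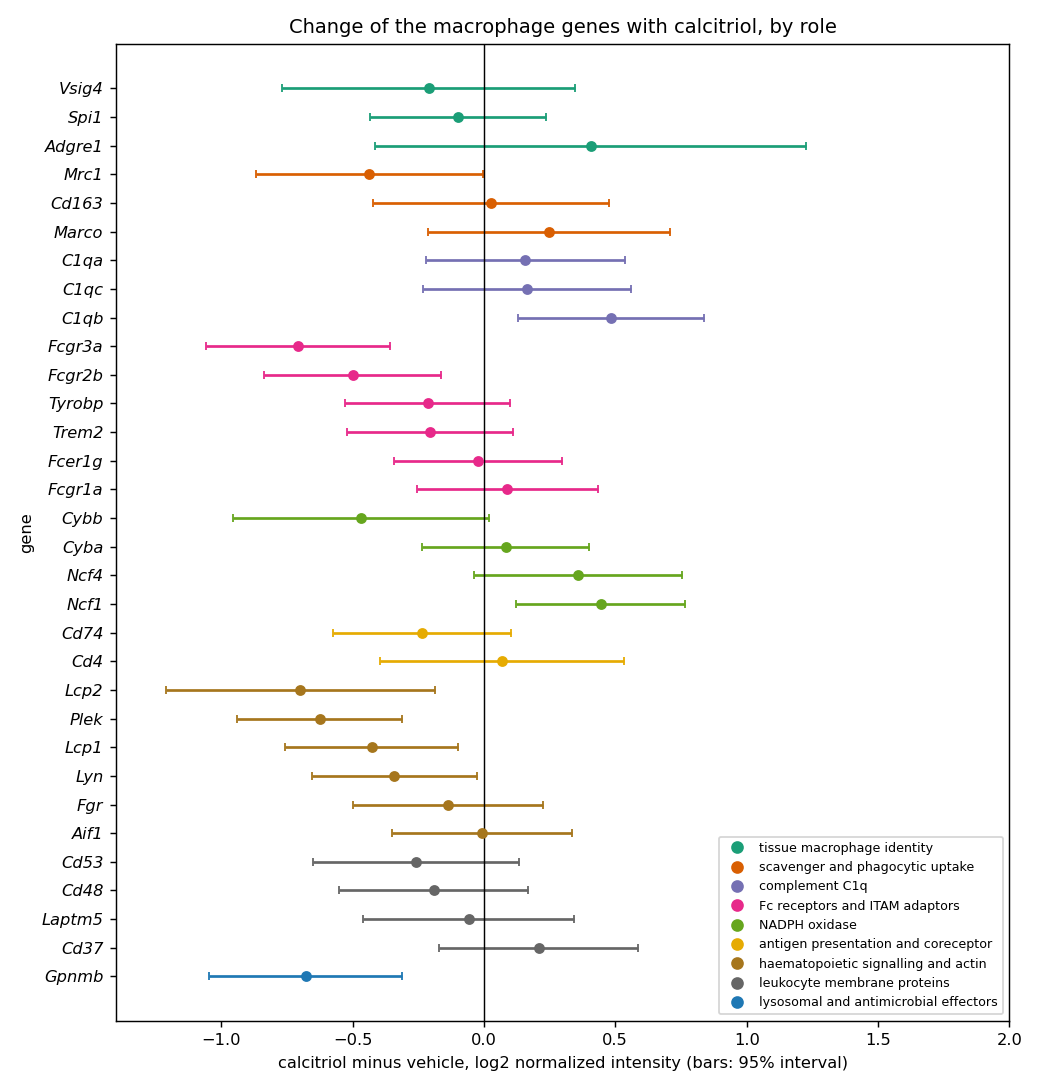
Log2 change of normalized intensity, calcitriol minus vehicle (x axis, 2 arrays a group), of the 32 kept genes (y axis, coloured by role); points are fitted changes and bars are 95% intervals. C1qb, Ncf1 and Ncf4 lie to the right of 0 and Fcgr3a, Lcp2, Gpnmb and Plek to the left.

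Array by array, 20 members lay above their own mean over the 5 arrays on vehicle array 1 and 20 on vehicle array 2, against 12 on each calcitriol array and 12 on the array labelled fresh. The median deviation was 0.08 and 0.05 on the vehicle arrays, -0.03 and -0.05 on the calcitriol arrays and -0.10 on the array labelled fresh, where all kept probes had medians of 0.00. The medians of the groups thus did not overlap. The members' median log2 level had a pooled SD of 0.056 between replicate arrays. Between the 2 vehicle arrays the members' differences had an interquartile range of 0.31 around a median of -0.03, and between the 2 calcitriol arrays 0.26 around -0.02. Across the 4 pairings of a calcitriol with a vehicle array that range was 0.35 to 0.55 and the median -0.18 to -0.08. For all kept probes the same range was 0.34 and 0.32 within the groups and 0.35 to 0.52 between them.

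**Figure D2:**
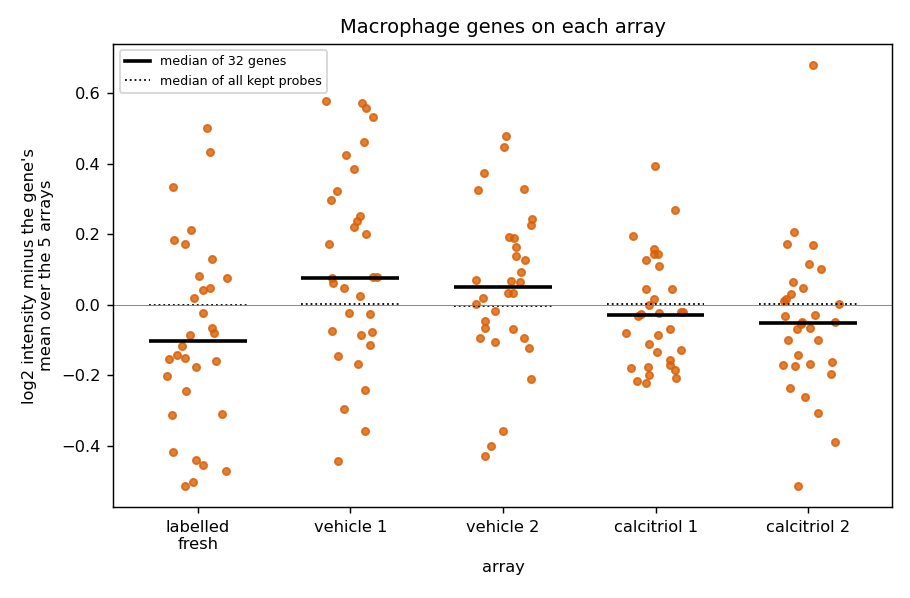
Log2 normalized intensity of each of the 32 genes minus its own mean over the 5 arrays (y axis), by array (x axis); thick lines are medians of the genes and dotted lines medians of all kept probes. The thick lines sit at 0.08 and 0.05 for vehicle and at -0.03 and -0.05 for calcitriol, and single genes lie on either side of 0 on every array.

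**Figure D3:**
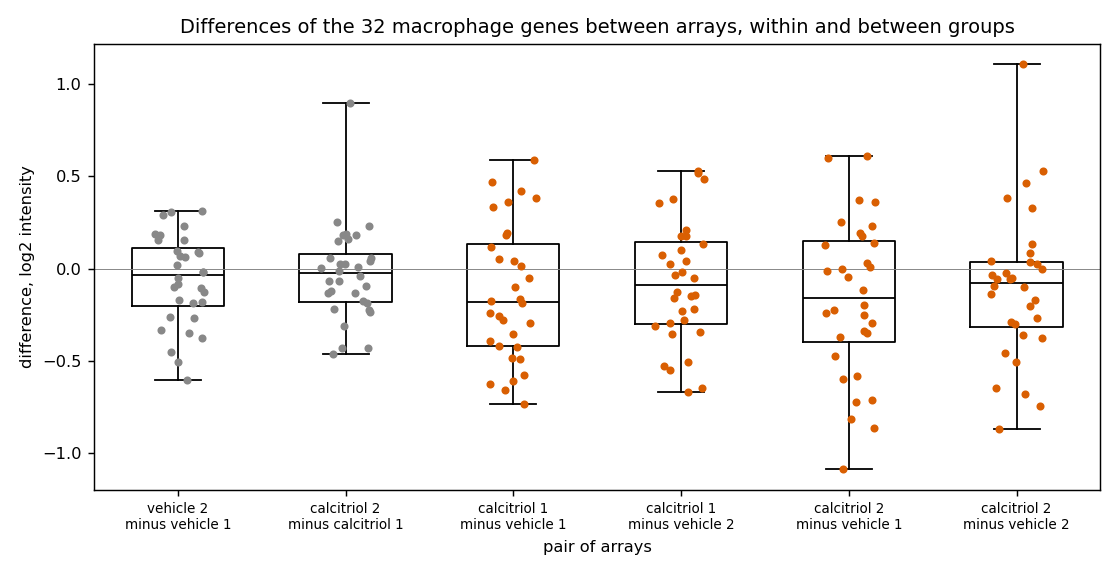
Difference in log2 normalized intensity of the 32 genes (y axis) for each pair of arrays (x axis), grey within a group and orange between calcitriol and vehicle; boxes span the quartiles around the median and whiskers the full range. The interquartile range is 0.31 and 0.26 within the groups and 0.35 to 0.55 between them.

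Among genes of tissue macrophage identity 3 were kept. Spi1 had log2 intensities of 9.04 and 8.91 with vehicle, 8.94 and 8.81 with calcitriol and 9.09 on the array labelled fresh. Its change with calcitriol was -0.10 ± 0.13 (SE, n = 2 a group), and the groups overlapped. Vsig4, the complement receptor by which Kupffer cells bind C3 fragments, read 10.21 and 9.61 with vehicle against 9.79 and 9.61 with calcitriol, and turned from -0.21 to 0.09 without vehicle array 1. Adgre1 read 6.58 and 6.07 with vehicle, the second of these not detected, against 6.29 and 7.18 with calcitriol. Its change of 0.41 ± 0.33 rested on calcitriol array 2, without which it was -0.04. The genes that define a resident macrophage in this group therefore gave no shared direction.

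Of the scavenger receptors 3 were kept. Marco, which binds bacterial surfaces, read 8.51 and 8.49 with vehicle, 8.98 and 8.52 with calcitriol and 8.43 on the array labelled fresh, with a change of 0.25 ± 0.19. Mrc1, the mannose receptor, which sinusoidal endothelium also carries, read 10.89 and 10.62 with vehicle against 10.47 and 10.16 with calcitriol, a change of -0.44 ± 0.17 (adjusted p = 0.31). Cd163, the receptor for haemoglobin bound to haptoglobin, differed by 0.03 ± 0.18 and changed sign without vehicle array 2 (-0.16) or calcitriol array 2 (-0.09). The 3 receptors thus spanned both directions and the spread of their replicates.

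The C1q genes encode the 3 chains of the complement component that starts the classical pathway, made in tissues mostly by macrophages, and they stand side by side in the order C1qb, C1qc, C1qa in the RefSeq annotation. C1qb read 13.12 and 13.35 with vehicle, 13.70 and 13.73 with calcitriol and 13.89 on the array labelled fresh. Both calcitriol arrays lay above both vehicle arrays, by 1.40-fold in the mean (log2 change 0.48 ± 0.14, adjusted p = 0.192). C1qa read 12.55 and 12.74 against 12.91 and 12.69, and C1qc 12.51 and 12.82 against 12.90 and 12.76, with changes of 0.16 ± 0.15 and 0.16 ± 0.16. For these chains the groups overlapped, so that the C1q chains had values in 1 direction but of unequal size. The log2 ratio of C1qb over C1qa, which cancels array-wide scaling, was 0.57 and 0.61 with vehicle and 0.79 and 1.04 with calcitriol. That of C1qa over C1qc differed by -0.01 between the groups. The difference for C1qb over C1qa was 0.33, and it had a p = 0.333 in a two-sided exact permutation test, the smallest that 2 against 2 arrays allow.

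The 250 bases upstream of the gene starts were read from a RefSeq table of build GRCr8 to show what these neighbours, with unequal changes, carry in front of them. C1qa lies on the minus strand with its window at chr5:154419934-154420183, and C1qb on the same strand with its window at chr5:154407828-154408077. Capitals mark the PU box, GAGGAA, searched on both strands (TTCCTC on the other).
C1qa: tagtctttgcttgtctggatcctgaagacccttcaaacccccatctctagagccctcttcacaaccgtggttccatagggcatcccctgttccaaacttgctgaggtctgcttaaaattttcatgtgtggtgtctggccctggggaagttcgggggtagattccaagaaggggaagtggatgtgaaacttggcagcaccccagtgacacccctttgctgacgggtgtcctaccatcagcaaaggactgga
C1qb: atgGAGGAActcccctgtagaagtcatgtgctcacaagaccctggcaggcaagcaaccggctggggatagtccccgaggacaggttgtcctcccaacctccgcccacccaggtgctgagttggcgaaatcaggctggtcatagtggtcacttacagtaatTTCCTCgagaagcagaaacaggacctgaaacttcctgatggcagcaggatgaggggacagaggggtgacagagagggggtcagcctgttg
The C1qb window holds the box 2 times, ending 241 and 84 bases before the gene start, and the C1qa window does not hold these letters.

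The NADPH oxidase, which makes superoxide in the phagosome, has a membrane part of the subunits encoded by Cybb and Cyba and cytosolic subunits that include those of Ncf1 and Ncf4. Cybb, the catalytic subunit, read 10.22 and 9.77 with vehicle, 9.64 and 9.41 with calcitriol and 9.17 on the array labelled fresh. Ncf1, the organizer subunit p47phox, read 13.75 and 13.65 with vehicle, 14.18 and 14.11 with calcitriol and 14.55 on the array labelled fresh. These subunits lay in opposite directions, and in neither did the groups overlap. The changes were -0.47 ± 0.20 for Cybb (adjusted p = 0.33) and 0.44 ± 0.13 for Ncf1 (adjusted p = 0.19). Ncf4, the subunit p40phox, read 10.25 and 9.92 with vehicle against 10.43 and 10.44 with calcitriol, a change of 0.36 ± 0.16. Cyba, the partner of Cybb in the membrane, differed by 0.08 ± 0.13.

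Ratios between subunits were taken on the same array, which removes array-wide scaling. Ncf1 over Cybb was 3.53 and 3.88 on the log2 scale with vehicle, 4.53 and 4.70 with calcitriol and 5.38 on the array labelled fresh. The ratio was 1.88-fold higher with calcitriol (log2 difference 0.91, two-sided exact permutation p = 0.333, the smallest possible). It kept its sign in all 16 alternative settings, between 0.75 and 1.10. Settings that change only the probe filter or the fit cannot alter this ratio, so the 16 are not separate checks. Ncf4 over Cybb differed by 0.83 and Cyba over Cybb by 0.55, while Ncf1 over Ncf4 overlapped between the groups with a difference of 0.09. The 3 ratios over Cybb, which share its values, thus did not overlap between the groups, and the ratio of the cytosolic subunits did. Ncf1 over Cyba did not overlap either, at -0.88 and -0.97 with vehicle and -0.58 and -0.55 with calcitriol. These ratios belong to 14 computed, none of which can reach a lower p with these arrays.

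**Figure D4:**
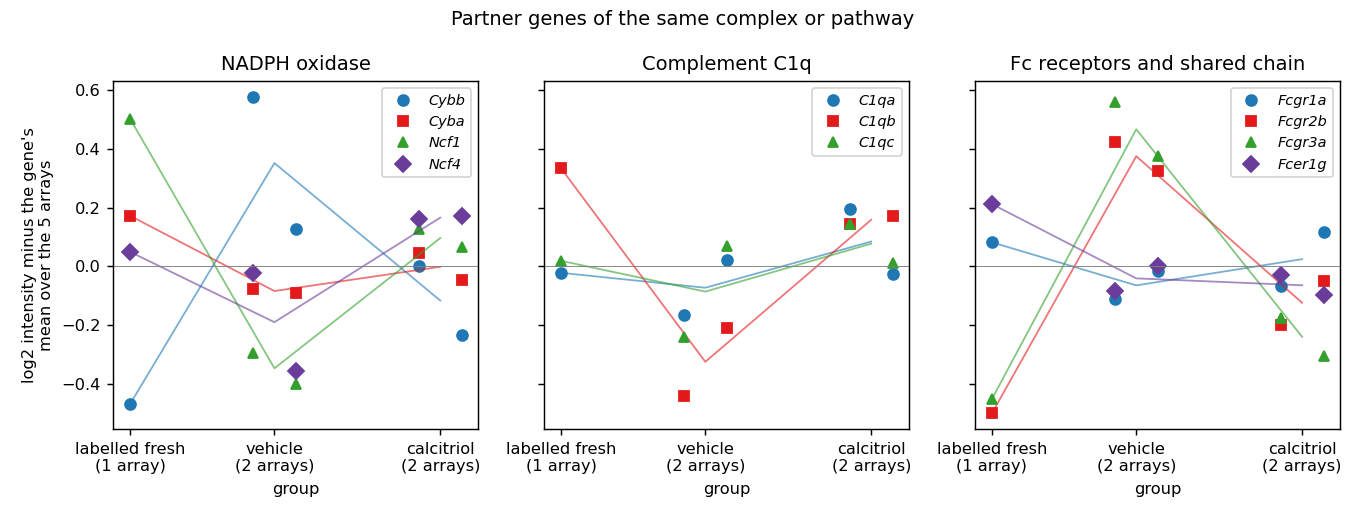
Log2 normalized intensity minus the gene's mean over the 5 arrays (y axis) by group (x axis) for NADPH oxidase, C1q and Fc receptor genes; points are arrays and lines join group means. Cybb, Fcgr2b and Fcgr3a are highest with vehicle, while Ncf1 and C1qb are lowest there.

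The upstream windows of the oxidase genes that lay furthest apart are given for comparison, Ncf1 at chr12:28121635-28121884 on the plus strand and Cybb at chrX:16065066-16065315 on the minus strand, with the PU box in capitals.
Ncf1: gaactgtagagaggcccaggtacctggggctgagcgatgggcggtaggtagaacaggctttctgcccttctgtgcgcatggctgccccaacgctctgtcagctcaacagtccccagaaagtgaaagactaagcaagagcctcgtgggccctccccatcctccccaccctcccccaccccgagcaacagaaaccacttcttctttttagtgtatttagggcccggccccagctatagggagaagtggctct
Cybb: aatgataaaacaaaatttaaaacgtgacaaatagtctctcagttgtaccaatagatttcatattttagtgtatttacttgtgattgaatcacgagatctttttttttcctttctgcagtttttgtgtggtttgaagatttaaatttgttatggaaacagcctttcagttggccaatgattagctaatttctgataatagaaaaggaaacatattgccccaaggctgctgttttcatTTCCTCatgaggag
The Cybb window holds 1 box, ending 8 bases before the gene start, and the Ncf1 window does not hold these letters.

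Fc receptors bind the constant part of antibodies, and those of the activating kind signal through the shared chain of Fcer1g. Fcgr3a, an activating receptor for IgG, read 13.61 and 13.43 with vehicle, 12.88 and 12.75 with calcitriol and 12.60 on the array labelled fresh. It was 1.63-fold lower with calcitriol (log2 change -0.71 ± 0.14, adjusted p = 0.0896), the largest difference of any member in either direction. Fcgr2b, the inhibitory receptor, which stands next to Fcgr3a in the RefSeq annotation and which sinusoidal endothelium also carries, read 12.39 and 12.29 with vehicle, 11.76 and 11.91 with calcitriol and 11.46 on the array labelled fresh (change -0.50 ± 0.14, adjusted p = 0.168). Both receptors were thus highest on the vehicle arrays, which did not overlap the others. Probes of this receptor family may share targets, since its members are similar in sequence and the probe letters were not used here.

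The high-affinity receptor gene Fcgr1a and the shared chain did not lie with them. Fcgr1a read 12.25 and 12.34 with vehicle against 12.29 and 12.48 with calcitriol, and Fcer1g 14.55 and 14.64 against 14.61 and 14.54. Fcgr3a over Fcer1g was -0.94 and -1.21 on the log2 scale with vehicle and -1.73 and -1.79 with calcitriol, so the ratio was 1.61-fold lower (two-sided exact permutation p = 0.333, the smallest possible). Tyrobp, an adaptor with an immunoreceptor activation motif, and Trem2, a lipid-sensing receptor that signals through it, differed by -0.21 ± 0.13 and -0.21 ± 0.13, and their ratio by 0.01. For that receptor and its adaptor the changes with calcitriol were nearly equal, in contrast to Fcgr3a and its chain. This did not extend to the array labelled fresh. Trem2 over Tyrobp was -0.61 there, against 0.08 and -0.07 with vehicle and 0.00 and 0.03 with calcitriol.

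The window upstream of Fcgr3a, the member furthest from 0, lies at chr13:85782386-85782635 on the plus strand, and that of Gpnmb, described next, at chr4:79340878-79341127 on the plus strand, again with the PU box in capitals.
Fcgr3a: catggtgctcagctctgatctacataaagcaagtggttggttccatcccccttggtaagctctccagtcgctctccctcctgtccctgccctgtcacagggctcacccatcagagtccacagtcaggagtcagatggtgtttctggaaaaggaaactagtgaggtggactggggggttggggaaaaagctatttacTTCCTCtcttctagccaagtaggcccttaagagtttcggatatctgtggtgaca
Gpnmb: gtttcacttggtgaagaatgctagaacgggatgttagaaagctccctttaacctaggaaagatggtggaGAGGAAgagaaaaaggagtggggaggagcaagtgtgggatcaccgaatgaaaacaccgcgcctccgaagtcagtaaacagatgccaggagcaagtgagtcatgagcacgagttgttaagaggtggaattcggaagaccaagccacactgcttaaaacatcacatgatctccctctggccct
Each holds the box once, ending 48 and 175 bases before the gene start. Over the members, 26 of 40 had an entry in the table, and 16 of these (61.5%) held the box in this window, against 23.3% of all 33469 promoters there. The box occurred in members with higher values with calcitriol, such as C1qb and Marco, and in members with lower values, such as Fcgr3a and Trem2. A direct repeat spaced by 3 bases, the usual form of a vitamin D response element, was searched on both strands as any ordered pair of the following hexamers. They were AGGTCA, the variant with GGTTCA, the variant with AGTTCA, and the variant with GGGTCA. It was found in 0 of the 26 windows and in 0.0926% of all promoters. Such matches describe letters in a short window and not the binding of a factor.

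Of the lysosomal and antimicrobial genes 1 was kept. Gpnmb, a transmembrane glycoprotein of macrophage lysosomes that also occurs in other cells, read 11.69 and 11.85 with vehicle, 11.20 and 10.98 with calcitriol and 11.13 on the array labelled fresh. It was 1.60-fold lower with calcitriol (-0.68 ± 0.15, adjusted p = 0.108), with no overlap of the groups.

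The genes of haematopoietic signalling and actin lay on 1 side, with 6 of 6 lower with calcitriol and a median of -0.38. Among the roles with 4 or more kept genes they were alone in this, while all 3 C1q genes lay higher. The 6 include Aif1, whose sign depended on the settings. Plek, pleckstrin, a substrate of protein kinase C, read 11.72 and 11.78 with vehicle, 11.12 and 11.14 with calcitriol and 10.92 on the array labelled fresh. Both calcitriol arrays lay below both vehicle arrays, and it was 1.54-fold lower with calcitriol (-0.63 ± 0.13, adjusted p = 0.0916). Lcp2, the adaptor SLP-76, read 8.39 and 8.05 against 7.73 and 7.30, a change of -0.70 ± 0.21 (adjusted p = 0.192). Lcp1, the actin-bundling L-plastin, read 14.04 and 14.19 against 13.68 and 13.69, a change of -0.43 ± 0.13 (adjusted p = 0.211). In these 3 genes the groups did not overlap, as in Lyn, a kinase of the Src family (-0.34 ± 0.13). Fgr, another Src family kinase, differed by -0.14 ± 0.15, and Aif1, the calcium-binding protein IBA1, by -0.01 ± 0.14, or 0.11 with scaling to the array median.

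The members among leukocyte membrane proteins and antigen presentation genes showed small differences. The tetraspanin gene Cd37 read 8.64 and 8.93 with vehicle, 8.97 and 9.01 with calcitriol and 9.43 on the array labelled fresh (0.21 ± 0.15), whereas its relative Cd53 differed by -0.26 ± 0.16. Cd48, a ligand of the receptor CD244, differed by -0.19 ± 0.14, and Laptm5, a lysosomal membrane protein of blood cells, by -0.06 ± 0.16, or 0.04 with scaling to the array median. Cd74, the invariant chain of major histocompatibility complex class II, differed by -0.24 ± 0.14 with both calcitriol arrays below both vehicle arrays. Among 5 kept class II and related genes outside the members 4 had a lower value with calcitriol. In limma 0 passed, against 1.83% of all kept probes. At an unadjusted p under 0.05 there were 2, RT1-Ba (-0.51) and RT1-DMa (-0.44), where 15.8% of all kept probes reached that level. Cd4, which rat macrophages carry as well as T cells, differed by 0.07 ± 0.19.

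Other myeloid genes outside the 40 showed larger changes. Of 47 kept genes in a broader macrophage and myeloid list 2 rose and 4 fell in limma with calcitriol, 12.8% against 1.83% of all kept probes, while their median was -0.09. The list was drawn up with earlier results on Ptprc, Coro1a and Clec4a1 known, so its count is not independent support. Clec7a, the beta-glucan receptor dectin-1, read 10.35 and 10.07 with vehicle and 11.23 and 11.38 with calcitriol (log2 change 1.09, adjusted p = 0.0375). Cd180, a relative of the Toll-like receptors, read 7.48 and 7.51 with vehicle and 6.24 and 6.15 with calcitriol (-1.30, adjusted p = 0.0138). Irf5, a transcription factor of inflammatory macrophages, read 9.62 and 9.80 with vehicle and 8.68 and 8.75 with calcitriol (-0.99, adjusted p = 0.035). The leukocyte phosphatase Ptprc and the lectin gene Clec4a1 fell, with log2 changes of -1.23 and -1.50, and the actin regulator Coro1a rose by 1.34. All 6 calls were lost without calcitriol array 1 or 2, settings in which no probe passed, and without vehicle array 1, and all but that of Ptprc without vehicle array 2. The call of Irf5 (adjusted p = 0.0595) and of Clec7a (adjusted p = 0.0623) was lost with the replicate number as a block. With no filter on detection Ptprc (adjusted p = 0.0578) and Clec7a (adjusted p = 0.0526) were lost in limma, and against a minimum fold of 1.2 Ptprc, Irf5 and Clec7a (adjusted p from 0.0805 to 0.0838). The change of Cd180 was -0.77 without background correction. These genes changed in both directions.

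The count of members that passed depended on the processing, as 0 in the fit above became between 3 and 8 of the members under 5 of the alternatives. Without background correction 4 members were lower in limma, namely Fcgr3a, Gpnmb, Plek and Fcgr2b (adjusted p from 0.0071 to 0.0423), where 5.01% of all kept probes passed. With only probes detected on every array tested, Fcgr3a, Gpnmb and Plek passed (adjusted p from 0.0317 to 0.0413), where 4.15% of all probes passed. With a variance trend 6 were lower and C1qb and Ncf1 higher, where 7.02% of all probes passed. The deposited value table gave the same 4 members as the setting without background correction, so these settings do not count as separate results. The signs of these members were the same in every alternative run, but settings that change only the filter or the fit leave the log2 changes as they were. The share of members called in these settings lay above the background share. The members were chosen with earlier results of these data known, so that share is not independent support.

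The second comparison set the vehicle arrays against the array labelled fresh, and it gives the effect of culture only as far as that label is right. It shares the vehicle arrays with the first comparison, so opposite signs in the pair of comparisons are built in where a vehicle value is high or low. None of 32 members passed in limma, against 1.53% of all kept probes, and 12 had an unadjusted p under 0.05, 9 higher and 3 lower with vehicle, where 13.9% of all kept probes reached that level (6.83% higher and 7.05% lower). There were 11 members with a change over 0.5 in size, where 14.6% of all kept probes had one. The median log2 change was 0.08 against 0.01 over all kept probes, or 0.18 without vehicle array 2. In this comparison 19 members had a higher and 13 a lower value.

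Fcgr3a was 1.89-fold higher with vehicle than on the array labelled fresh (log2 change 0.92 ± 0.17, SE, 2 arrays against 1, adjusted p = 0.0844). The lone array is assumed to vary like the replicates of the other groups, and with only the groups of this comparison fitted 0% of all kept probes passed. Fcgr2b was 1.84-fold higher (0.88 ± 0.17) and Plek 1.78-fold higher (0.83 ± 0.15, adjusted p = 0.0816). These were the largest higher values among members. In the other direction Ncf1 was 1.80-fold lower (-0.85 ± 0.16, adjusted p = 0.0834), C1qb 1.58-fold lower (-0.66 ± 0.17) and Cd37 1.57-fold lower (-0.65 ± 0.19). Without background correction 5 members passed as higher and 2 as lower in limma, where 4.12% of all kept probes passed, and with only probes detected on every array 3 as higher and 1 as lower, where 3.6% passed. Beside these values, 14 of 15 kept sinusoidal endothelial markers had a higher value with vehicle than on the array labelled fresh. The median was 0.61, and with calcitriol 14 of 15 were likewise higher than on that array, with a median of 0.46. Summed normalized intensities were 7611 on the array labelled fresh, 10671 and 10431 with vehicle, and 9331 and 9419 with calcitriol. With calcitriol against vehicle 6 of these markers had a higher and 9 a lower value, with a median of -0.10. That list includes Fcgr2b, and the part of endothelial RNA in the values of Fcgr2b and Mrc1 was not tested.

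Calcitriol was also compared with the array labelled fresh. None of 32 members passed in limma, where 0% of all kept probes did. At an unadjusted p under 0.05 there was 1 member, Ncf1, at a log2 change of -0.41, where 6.67% of all kept probes reached that level. The members' changes ran from -0.44 for Cd37 to 0.54 for Vsig4, with a median of 0.06.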

How the data were processed

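Biotin-labelled cRNA was hybridised to Illumina bead arrays, per the labels' protocols, and GenomeStudio 2011.1 was used, per the submitters' processing notes. The deposited intensity values are mean bead signals per probe, with bead numbers and standard errors, per the file headers. A detection p-value was deposited for each probe and array, per the file headers, which in this software sets the signal against negative control beads. The deposited value table holds linear intensities that look quantile normalized, a step read from the values.

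Intensities were background-corrected and quantile normalized with limma's neqc (limma 3.58.1, R 4.3.3, offset 16), which understates changes of dim probes. Log2 values of all 5 arrays were fitted with 1 mean per group (lmFit, eBayes), with 2 residual and 3.65 prior degrees of freedom. Adjusted p-values are limma's, two-sided, with Benjamini-Hochberg adjustment over 9737 probes at a threshold of 0.05. All arrays were on 1 chip, each group at its own positions, so position and group cannot be told apart. Every kept member is named, and array values are given for the 6 largest changes in each direction with calcitriol and the 3 largest for vehicle against the array labelled fresh. The members and lists were chosen with earlier results of these data known. Probe names come from the platform annotation, which names 13793 probes and leaves 8730 unnamed here. The precision is limited by the number of arrays.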

Additional observations from a re-analysis of the deposited data

How the results depend on the processing

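The number of members that passed with calcitriol, 0 as reported, was 4 without background correction, 3 with normexp without negative controls, 4 with the deposited value table, 3 with only probes detected on every array and 8 with a variance trend. For vehicle against the array labelled fresh the same settings gave 7, 4, 7, 4 and 9 members in place of 0, as the share of all probes that passed went from 1.53% to 4.12%, 3.74%, 4.12%, 3.6% and 5.2%. For probes detected on every array fewer probes were tested. The cause of the higher counts was not tested in any setting. Against the array labelled fresh, calcitriol gave 0 members in every alternative run. Leaving out 1 day 3 array at a time gave 0 members in all 3 comparisons, and a median log2 change of the members between -0.15 and -0.09 for calcitriol and between 0.0789 and 0.177 for vehicle against the array labelled fresh. With the replicate number as a block 0 members passed with calcitriol, as with the pairing crossed, which was added after seeing the data because same-numbered arrays deviated with a correlation of -0.11. The lowest adjusted p was 0.143 and 0.0827 in these fits. All kept probes of members gave the same values, since each has 1 probe. Of uncalled members, Aif1 (0.11) and Laptm5 (0.037) changed sign with scaling to the array median. Leaving out 1 array at a time, sign changes gave ranges from -0.095 to 0.082 for Aif1 (0.038 without vehicle array 2), from -0.215 to 0.0946 for Laptm5 (0.018 without calcitriol array 1), from -0.513 to 0.0901 for Vsig4, from -0.0431 to 0.858 for Adgre1, from -0.158 to 0.219 for Cd163 (-0.0901 without calcitriol array 2), from -0.147 to 0.283 for Cd4 (-0.0224 without vehicle array 2), from -0.0697 to 0.0185 for Fcer1g (0.0087 without calcitriol array 2) and from -0.0029 to 0.182 for Fcgr1a. Adgre1 is left out where a probe must be detected on every array. The number of arrays limits what could be detected, and Adgre1 and Cd4 were the dimmest members.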
